A study of Bos taurus with 12 samples.

Results

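BL and 8CB are classes of frozen bovine blastomeres, named by what became of the sister cell of the same embryo. The comparison of BL with 8CB took 6 of the 12 arrays of the series: 3 labelled BL_vs_8CB, with BL in Cy5 and 8CB in Cy3, and 3 labelled 8CB_vs_BL, with the dyes swapped. They were chosen by these labels alone, with replicate numbers 1 to 3 in each dye orientation. Bovine embryos (Bos taurus) were bisected at the 2-cell stage. One blastomere was cultured on its own until day 7 and the other was frozen. The BL pools held frozen cells whose sisters reached the blastocyst stage. The 8CB pools held frozen cells whose sisters cleaved and then stopped, by the cell type labels at 4 cells although the class is called 8CB. The frozen cells themselves were all taken at the 2-cell stage. The labels give 3 independent pools of 15 blastomeres per class, so each channel holds a pool average and differences between single cells were not measured. The class describes the sister, not the cell that was measured. The other 6 arrays set BL against 2CB, cells whose sisters stopped at 2 cells, and served here for the shared estimate of spread and for 1 test of difference.

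A bovine 2-cell blastomere runs mainly on messenger RNA and protein stored in the oocyte. The embryo's own genome is transcribed strongly only after further cleavages, and until then stored transcripts are polyadenylated, translated and degraded in a timed order. An embryo that stops between these points has divided on maternal stores but has not formed the first epithelium, the trophectoderm, or the inner cell mass.

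Each array holds 1 ratio between both dyes for each of 43793 probes, on a log scale that was read as base 2, since no base is given. The deposited table does not say which class is on top. If each ratio is Cy5 over Cy3, a difference between BL and 8CB enters the orientations with opposite sign and cancels when they are averaged. If the swapped arrays were turned before deposit, it stays in the average and a dye effect cancels. The labels do not say which was done, so dye and class cannot be told apart for a gene that lies on 1 side in both orientations. Values are therefore given as deposited, with a positive and a negative side but no class attached to a side. Values turned by the labelled dyes (BL_vs_8CB minus 8CB_vs_BL, divided by 2) are given beside the lead counts; a positive one would be BL over 8CB if the deposited ratios are Cy5 over Cy3. The orientations were also written with different precision, with at most 6 significant digits in BL_vs_8CB columns and up to 10 in 8CB_vs_BL columns. All 6 columns were centred near 0, with SDs from 0.257 to 0.385.

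The 6 arrays agreed only in part. Across probes, the swapped arrays of replicate 2 correlated at 0.562, those of replicate 3 at 0.111 and those of replicate 1 at -0.036. Array 1 of 8CB_vs_BL and array 2 of BL_vs_8CB correlated at -0.505. Within 1 orientation no pair fell below -0.028. After each label's mean was taken off, the swapped arrays of 1 number correlated at 0.357, 0.80 and -0.218 for replicates 1, 2 and 3. In BL against 2CB the swapped arrays gave 0.405, 0.472 and 0.248. For the same pools, ratios left as Cy5 over Cy3 would deviate in opposite directions. That a number holds the same pools was assumed, so no sign was taken from these values. The averaged ratio of replicate 1 correlated with that of replicate 2 at -0.209 and with that of replicate 3 at 0.315, and replicates 2 and 3 correlated at 0.383. Turned by the labelled dyes, the same pairs correlated at 0.654, 0.048 and 0.415. As deposited, replicates 1 and 2 thus ran against each other, and each ran partly with replicate 3. Counts are given without each replicate where they depend on it. The mean of the BL_vs_8CB arrays and the mean of the 8CB_vs_BL arrays correlated at 0.104 across probes.

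**Figure D1:**
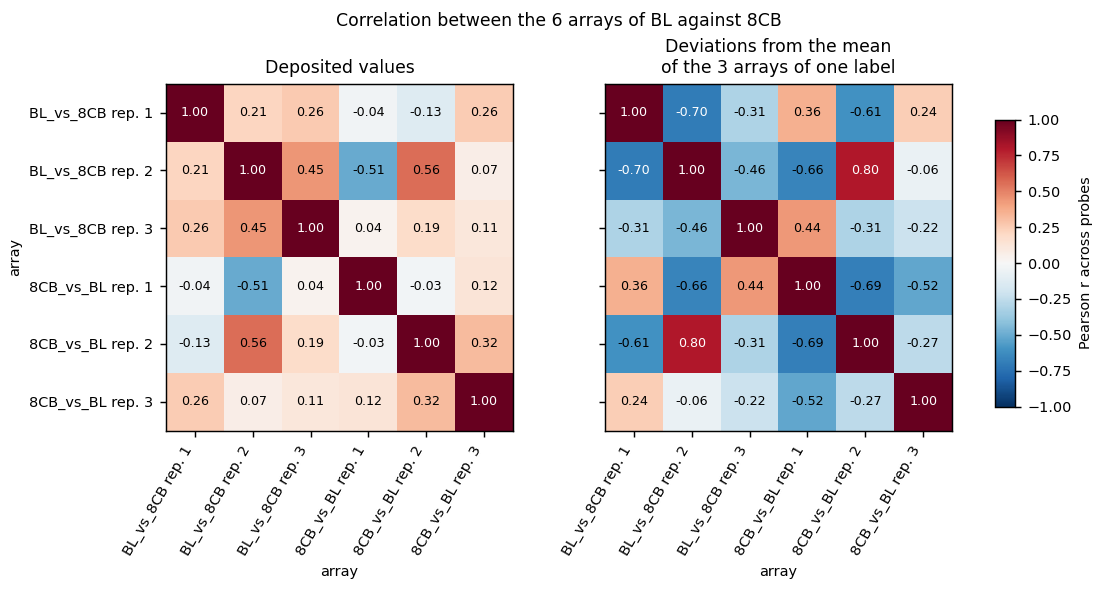
Pearson correlation across probes for each pair of the 6 arrays (both axes list the arrays, BL_vs_8CB above 8CB_vs_BL; colour gives r from -1 to 1), for the deposited values on the left and for deviations from the mean of the 3 arrays of a label on the right. The swapped arrays of replicate 2 agreed best (0.562 and 0.80), and deviations within 1 label are negative by construction because 3 of them sum to 0.

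No probe passed an adjusted p of 0.05 in BL against 8CB (limma, Benjamini-Hochberg over all probes, 0.0% of 43793). At an unadjusted p under 0.05 there were 4285 probes (9.78%), 2046 on the positive side (4.67%) and 2239 on the negative (5.11%). Without replicate 3 this count was 2305, and without replicates 1 and 2 it was 5331 and 4159. At an adjusted p under 0.10, 92 probes remained (0.21%), 22 positive (0.0502%) and 70 negative (0.16%), but 1, 0 and 0 without replicate 1, 2 or 3. On 1 side in all 6 arrays lay 2562 probes (5.85%), 1194 positive (2.73%) and 1368 negative (3.12%). Ratios were small: 248 probes with an unadjusted p under 0.05 were at least 1.5-fold from 1 (0.566%), and 10 of all probes were at least 2-fold (0.0228%). Turned by the labelled dyes, 2028 probes passed an adjusted p of 0.05 (4.63%), 1339 of them on the side that would be BL over 8CB. Since 3 pools per class limit the precision, the absence of calls as deposited does not show that BL and 8CB cells were alike.

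Of the 21790 probes with a gene symbol, 15 genes per side with the smallest p are described first. Their probes were required to lie on 1 side in all 6 arrays, so that agreement is part of the choice. They all had an adjusted p between 0.0827 and 0.0994, above the threshold. The mean ± SE of 3 averaged ratios is given for each, on the log2 scale.

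Regulators of chromatin and transcription stood on both sides. SETD1A, a methyltransferase of histone H3 lysine 4, had -0.79, -0.91 and -0.67 in the BL_vs_8CB arrays and -0.62, -0.82 and -0.50 in the 8CB_vs_BL arrays, for a mean of -0.72 ± 0.07. All its arrays were negative and the orientations overlapped. RNF40, a ubiquitin ligase for histone H2B, averaged -0.50 ± 0.05, with its lowest value, -0.91, in array 1 of 8CB_vs_BL. ZNF518B, a zinc finger protein, had -0.51, -0.74 and -0.72 in the BL_vs_8CB arrays and -0.69, -0.70 and -0.68 in the 8CB_vs_BL arrays. Its 8CB_vs_BL values were almost equal, and its mean was -0.67 ± 0.06. On the positive side, CBX8, a chromobox reader of Polycomb repressive complexes, averaged 0.49 ± 0.06. E2F4, which represses cell cycle genes in resting cells, had 0.22, 0.49 and 0.10 in the BL_vs_8CB arrays and 0.72, 0.38 and 0.61 in the 8CB_vs_BL arrays, for a mean of 0.42 ± 0.05. Its 8CB_vs_BL values were the higher ones on the whole, but the sets overlapped. SUPT20H, a subunit of the SAGA histone acetyltransferase complex, averaged 0.45 ± 0.05.

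Of the 30 genes, 4 that handle RNA lay on the positive side. RBM42, an RNA-binding protein, had 0.64, 0.53 and 0.75 in the BL_vs_8CB arrays and 0.77, 0.78 and 1.14 in the 8CB_vs_BL arrays. Its mean of 0.77 ± 0.09 equals a 1.70-fold difference, and its orientations did not overlap. SNUPN, which imports spliceosomal ribonucleoproteins into the nucleus, had 0.38, 0.61 and 0.50 in the BL_vs_8CB arrays and 0.44, 0.52 and 0.56 in the 8CB_vs_BL arrays, a narrow spread around 0.50 ± 0.06. SFPQ, a splicing factor of paraspeckles, averaged 0.49 ± 0.06, with 0.04 in array 1 of BL_vs_8CB as its only value near 0. ZFR, a zinc finger RNA-binding protein, averaged 0.58 ± 0.06.

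A respiratory chain gene, an endoplasmic reticulum gene and an oxidoreductase lay on the negative side. UQCRQ, a subunit of respiratory complex III, had -0.40, -0.55 and -0.68 in the BL_vs_8CB arrays and -0.96, -0.64 and -0.18 in the 8CB_vs_BL arrays, for a mean of -0.57 ± 0.05. The 8CB_vs_BL arrays spread widely, and averaging within each number narrowed that spread. EMC8, of the complex that inserts proteins into the endoplasmic reticulum membrane, averaged -0.57 ± 0.04 although its arrays ran from -1.05 to -0.21. SCCPDH, an oxidoreductase, averaged -0.48 ± 0.05.

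Signalling, adhesion and trafficking genes were divided. BMPR1A, a type I receptor for bone morphogenetic proteins, had -0.80, -0.67 and -0.71 in the BL_vs_8CB arrays and -0.26, -0.24 and -0.56 in the 8CB_vs_BL arrays, which did not overlap, with a mean of -0.54 ± 0.06. FERMT2 (kindlin-2), which activates integrins, averaged -0.57 ± 0.05 on 1 of its 4 probes, but the others averaged 0.40, 0.14 and -0.03. ULK3, a kinase of autophagy, averaged -0.58 ± 0.06. On the positive side, SCIN, an actin-severing protein, had 0.34, 0.82 and 0.85 in the BL_vs_8CB arrays and 0.83, 1.02 and 0.58 in the 8CB_vs_BL arrays, for a mean of 0.74 ± 0.09. RASSF5, an effector of RAS, averaged 0.48 ± 0.05, with its 3 probes between 0.00 and 0.48. RAB11B, a GTPase of recycling endosomes, averaged 0.47 ± 0.06, SH3KBP1, an endocytic adaptor, 0.32 ± 0.04, and SPG21 0.57 ± 0.06, with 0.03 on the other SPG21 probe.

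The remaining genes of the 30 included the ends of the ranking. CT47B1, a cancer/testis family gene, had the smallest p of all probes. It had -0.75, -0.76 and -0.83 in the BL_vs_8CB arrays and -0.83, -0.60 and -0.63 in the 8CB_vs_BL arrays, for -0.73 ± 0.04, a 1.66-fold difference (adjusted p = 0.0827). LOC786299 had the farthest mean of the 30, with 1.25, 0.80 and 0.98 in the BL_vs_8CB arrays and 0.63, 0.85 and 1.34 in the 8CB_vs_BL arrays. Its mean of 0.97 ± 0.08 equals 1.97-fold. RWDD4 averaged -0.62 ± 0.04, with -0.16 and -1.02 in the swapped arrays of replicate 1. TMEM168 averaged -0.59 ± 0.06, LOC100297586 -0.64 ± 0.05, LOC100301462 -0.66 ± 0.06 and LOC789148 -0.52 ± 0.05, against C7H1orf35 at 0.65 ± 0.08 and NICN1, of the tubulin polyglutamylase complex, at 0.33 ± 0.04. Further probes lay nearer to 0, at -0.25 and -0.08 for RWDD4, -0.32 and -0.04 for TMEM168, and 0.18 and 0.00 for C7H1orf35.

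**Figure D2:**
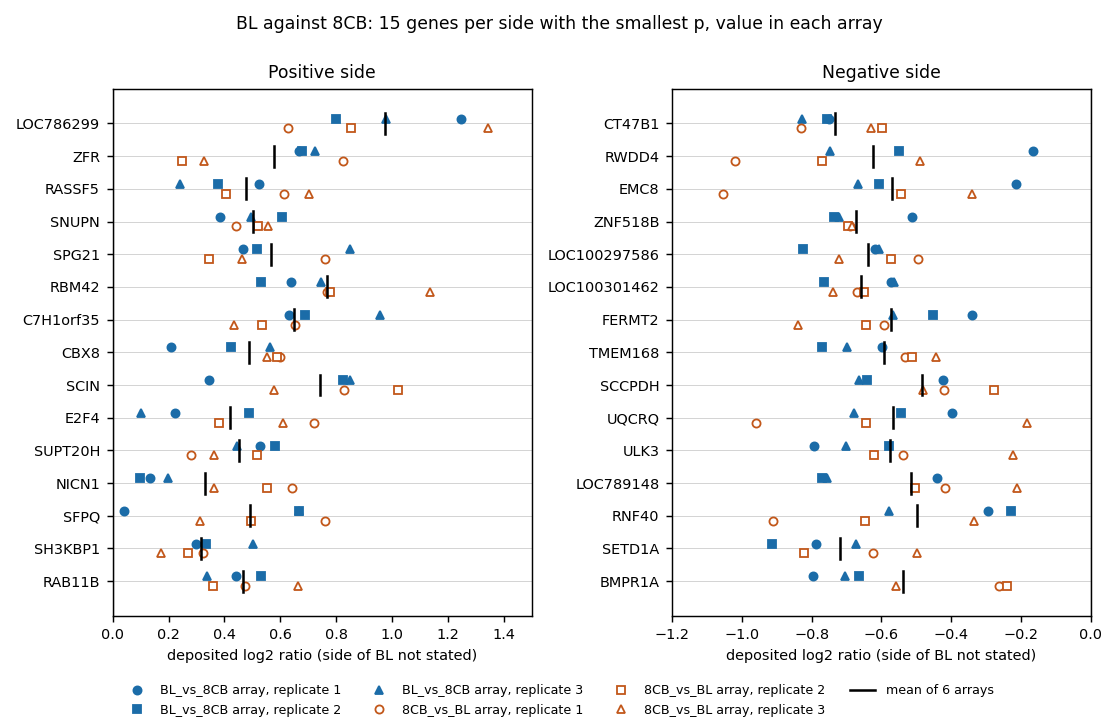
Deposited log2 ratio (x axis) in each of the 6 arrays for the 15 genes per side with the smallest p (rows), with filled symbols for BL_vs_8CB arrays, open symbols for 8CB_vs_BL arrays, 1 shape per replicate number and a bar at the mean. Every array lies on 1 side by the choice of genes, CT47B1 and ZNF518B are tight around -0.73 and -0.67, and the lowest values, of EMC8 and RWDD4, come from array 1 of 8CB_vs_BL.

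The largest ratios came with larger spreads. Of 16 genes taken for their mean ratio, 8 per side, the adjusted p ran from 0.0994 to 0.489. SREK1, a regulator of splice site choice, had 0.89, 1.55 and 0.79 in the BL_vs_8CB arrays and 0.90, 1.78 and 0.95 in the 8CB_vs_BL arrays, for 1.14 ± 0.24 or 2.21-fold. Replicate 2 was highest in both orientations. The same replicate was the most extreme in both orientations for NUDT3, a phosphatase of inositol pyrophosphates (1.00 ± 0.25), DUSP10, a phosphatase of stress-activated kinases (0.92 ± 0.25), and DNAJB5, a co-chaperone (0.97 ± 0.15). Without replicate 2, NUDT3 averaged 0.66 and DUSP10 0.56. The other probes of NUDT3 averaged 0.11, -0.06 and -0.41, and those of DUSP10 0.35, 0.14 and 0.02, so both large ratios rested on 1 probe. NAV1, a microtubule-associated protein, averaged 1.04 ± 0.15 and ZNF24 0.93 ± 0.17. TXNIP, which binds and inhibits thioredoxin, had 1.67, 1.11 and 0.28 in the BL_vs_8CB arrays and 0.98, 0.75 and 0.79 in the 8CB_vs_BL arrays, for 0.93 ± 0.31. Only 1 of the 4 TXNIP probes reached that mean and the lowest had 0.09.

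On the negative side SLC49A4, a lysosomal transporter, averaged -1.05 ± 0.25, or 2.07-fold. That mean leaned on array 3 of BL_vs_8CB, at -2.52, against values between -1.24 and -0.09 in the other 5 arrays. Without replicate 3 it was -0.74, and the other probes of the gene averaged -0.43, -0.02 and 0.02. DMAC2L, a coupling factor of ATP synthase, was steadier, with -0.86, -1.16 and -0.99 in the BL_vs_8CB arrays and -0.47, -1.07 and -1.05 in the 8CB_vs_BL arrays, for -0.93 ± 0.10 (adjusted p = 0.0994). Its other probes averaged -0.15 and 0.00. KDR, the main receptor for vascular endothelial growth factor, averaged -0.77 ± 0.09, also with an adjusted p of 0.0994. MPC1, a subunit of the carrier that brings pyruvate into mitochondria, averaged -0.79 ± 0.16 on this probe and -0.06 on its other. COPS7A, of the COP9 signalosome, averaged -0.79 ± 0.15, NPTN, an adhesion molecule, -0.76 ± 0.28 (other probes -0.23 and 0.06) and LOC781152 -0.83 ± 0.32. LOC781152 was -0.40 without replicate 2.

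Several probes of 1 gene read the same pools on the same arrays, so they are not further replicates. The genes named below were chosen because every probe lay on 1 side, so that agreement is part of the choice. Of 4034 genes with at least 2 probes, 17 had every probe positive at an unadjusted p under 0.05 (0.421%) and 13 had every probe negative (0.322%). On the positive side SRRM2, a scaffold of nuclear speckles, averaged 0.67 ± 0.14 on its leading probe and 0.64 on the other. RPL11, a ribosomal protein that also binds the p53 regulator MDM2, had 0.59 ± 0.12 and 0.52. AKR1B1, aldose reductase, had 0.47 ± 0.10 and 0.50, and PSMC3, an ATPase of the proteasome cap, 0.49 ± 0.11 and 0.28. On the negative side, both probes of ZNF280B lay at -0.63 ± 0.08 and -0.58, and the 3 probes of LGR4, a receptor for R-spondins that raises WNT signalling, lay between -0.54 and -0.21. The leading LGR4 probe had -0.49, -0.69 and -0.73 in the BL_vs_8CB arrays and -0.39, -0.54 and -0.42 in the 8CB_vs_BL arrays. CLDN12, a tight junction protein, averaged -0.59 ± 0.07 with 0.00 in array 1 of 8CB_vs_BL. CSTB, an inhibitor of cathepsins (-0.38 ± 0.07), SUCLG2, of the citric acid cycle (-0.45 ± 0.12), and EGLN1, the prolyl hydroxylase that marks HIF1A for decay (-0.30 ± 0.08), were also negative on every probe. The leading probes of the 20 genes chosen in this way, up to 10 per side, had adjusted p from 0.0994 to 0.378. Their other probes reached 0.456, in MEMO1.

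Whether a value belonged to 8CB or also appeared against 2CB was tested as the difference between both comparisons, which share BL. No probe passed an adjusted p of 0.05 for that difference (0.0%), and 1985 had an unadjusted p under 0.05 (4.53%). The test assumes that both comparisons were deposited with BL on the same side and treats the averaged ratios as independent. With 3 BL pools in the labels, the same pools may stand in both comparisons, which the fit leaves out. RBM42 averaged 0.77 ± 0.09 against 8CB and 0.76 ± 0.09 against 2CB. TMEM168 had -0.59 ± 0.06 against 8CB and -0.67 ± 0.06 against 2CB, and E2F4 0.42 ± 0.05 against 8CB and 0.44 ± 0.05 against 2CB. Others were near 0 against 2CB. LOC786299 had 0.97 ± 0.08 against 8CB and 0.04 ± 0.08 against 2CB, and SCIN 0.74 ± 0.09 against 8CB and -0.03 ± 0.09 against 2CB. UQCRQ had -0.57 ± 0.05 against 8CB and -0.05 ± 0.05 against 2CB. RASSF5 had 0.48 ± 0.05 against 8CB and -0.22 ± 0.05 against 2CB, with the smallest unadjusted p for a difference among the named genes, 8.1e-05. The adjusted p of all 4 differences was 0.94, so none was shown to be particular to 8CB.

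**Figure D3:**
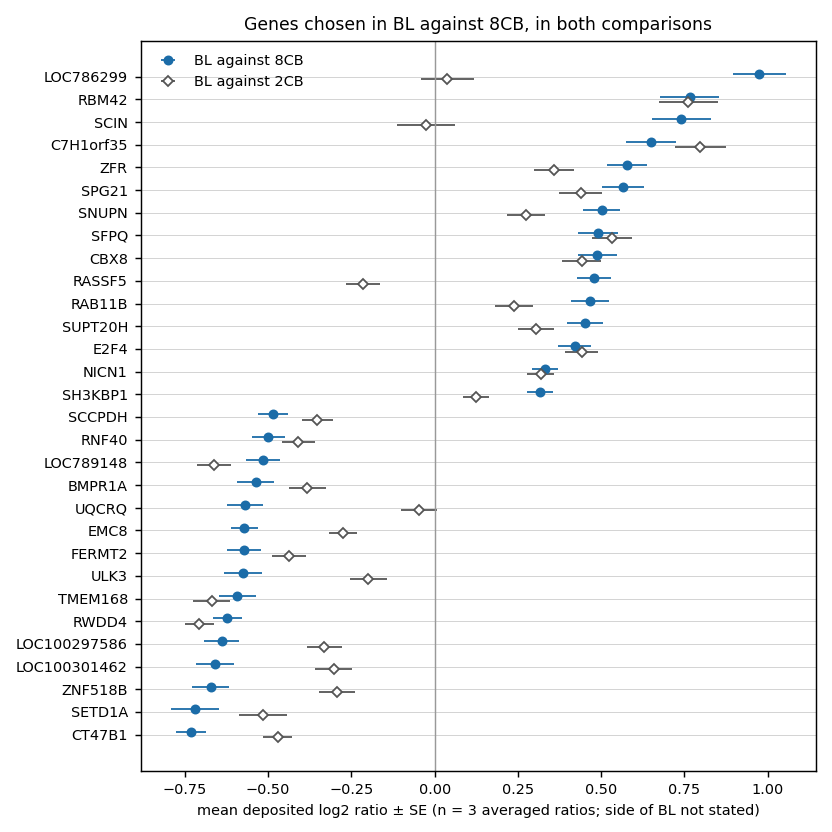
Mean deposited log2 ratio ± moderated SE (x axis, 3 averaged ratios per point) of the 30 genes with the smallest p against 8CB (rows). Filled circles show BL against 8CB and open diamonds BL against 2CB, with the same SE for both because the spread is shared. The genes were chosen on the filled circles; RBM42, E2F4 and TMEM168 have both symbols close together, while LOC786299, SCIN, UQCRQ and RASSF5 have theirs apart.

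Gene lists by function were read after the probes of each gene had been averaged. Of 15216 genes, 1676 had an unadjusted p under 0.05 (11.0%), 853 positive (5.61%) and 823 negative (5.41%), and none passed an adjusted p of 0.05. Without replicates 1, 2 and 3 the share of all genes was 13.8%, 10.1% and 5.55%, and the sides shifted too, with 938 positive and 601 negative without replicate 2 but 991 and 1114 without replicate 1. The median over all genes was 0.004 and the median absolute value 0.057. The lists differed in the size of their ratios. Their median absolute value was 0.18 for translation factors, 0.132 for heat shock genes, 0.173 for the oocyte list and 0.04 for cumulus and granulosa markers. How far this accounts for the shares below was not tested. Counts below are of genes at an unadjusted p under 0.05 and are descriptions; no list was tested.

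Among translation factors 17 of 59 genes reached that level (28.8%), 10 positive and 7 negative, with a list median of 0.02. EIF4B, which stimulates the helicase that unwinds 5′ leaders, averaged 0.92 ± 0.18, with replicate values of 0.78, 1.31 and 0.67. The elongation factor subunit EEF1G had 0.46 ± 0.09. Subunits of initiation factor 3 lay on both sides, EIF3E at -0.46 ± 0.10, EIF3B at -0.32 ± 0.07 and EIF3F at -0.20 ± 0.06, but EIF3H at 0.26 ± 0.10. Without replicate 1 the list had 11 positive and 11 negative, without replicate 2 it had 11 and 5, and without replicate 3 it had 5 and 7. Cytosolic ribosomal proteins had 12 of 62 (19.4%), 7 positive and 5 negative, with RPL11 at 0.56 ± 0.13 and RPL4 at 0.42 ± 0.11 against RPL37 at -0.55 ± 0.14. Their split turned with the replicates: 12 positive and 1 negative without replicate 1, 9 and 3 without replicate 2, and 1 and 8 without replicate 3. Many ribosomal protein genes have near-identical copies, so their probes may read more than 1 gene.

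Splicing genes had 14 of 72 (19.4%), and here 11 were positive and 3 negative, while the list median was -0.017. RBM42, SNUPN and SFPQ led it. SRSF9 (0.33 ± 0.06) and SF3B2 (0.49 ± 0.10), both of the splicing machinery, were positive as well, and SNRPD2, a core protein of the small nuclear ribonucleoproteins, was at -0.36. The split was 12 positive and 6 negative without replicate 1, 10 and 2 without replicate 2, and 7 and 3 without replicate 3. Polyadenylation and decay of messenger RNA had 16 of 77 (20.8%), 7 positive and 9 negative. CPSF3 at -0.54 ± 0.08 and CPSF2 at -0.28 ± 0.04, of the cleavage and polyadenylation specificity factor, were negative. The 4 CPSF2 probes ran from -0.51 to 0.04. CPSF7, of cleavage factor I, was at -0.60 ± 0.08, whereas XRN1, the 5′ exonuclease, was at 0.38 ± 0.08. That list's count was 7 without replicate 3. Nuclear transport had 13 of 55 (23.6%), with SNUPN and TNPO1 (0.28 ± 0.06) positive and CSE1L, which recycles importin alpha, at -0.40 ± 0.07. The counts of 8 positive and 5 negative compare with 4 and 5 without replicate 2, and 4 and 1 without replicate 3.

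Cell cycle genes had 16 of 74 (21.6%), 8 on each side. E2F4 was positive, whereas its dimer partner TFDP1 had -0.46, -0.53 and -0.51 in the 3 averaged ratios, for -0.50 ± 0.07. Replicate values of TFDP1 were close to each other. CCNB1, the mitotic cyclin, averaged -0.47 ± 0.08 and PLK2 -0.54 ± 0.08, while the mitotic kinase AURKA averaged 0.49. Without replicate 3 there were 3 positive and 5 negative. DNA damage genes had 13 of 59 (22.0%), 10 negative and 3 positive. Both inhibitors of p53 were negative, MDM2 with -0.34, -0.37 and -0.39 (mean -0.36 ± 0.06) and MDM4 at -0.41 ± 0.10. The checkpoint adaptor TOPBP1 averaged -0.27 ± 0.06, and PARP1, which senses strand breaks, 0.56 ± 0.15. The split was 9 negative and 3 positive without replicate 1, 7 and 4 without replicate 2, and 7 and 2 without replicate 3. DNA replication had 9 of 47 (19.1%), led by LIG1 at 0.47 ± 0.12. It had 6, 8 and 5 without replicates 1, 2 and 3, and its counts of 6 negative and 3 positive compare with 3 and 5 without replicate 2 and 2 and 3 without replicate 3. Apoptosis had 7 of 33 (21.2%), 6 negative, among them MCL1 (-0.21 ± 0.06) and CASP2 (-0.37 ± 0.12), but 3, 3 and 2 genes of either side without replicates 1, 2 and 3.

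Chromatin genes had 17 of 81 (21.0%), 9 positive and 8 negative. It had 5 positive and 7 negative without replicate 2, and 4 and 2 without replicate 3. After SETD1A came the deacetylase HDAC1, with 0.86, 0.55 and 0.81 and a mean of 0.74 ± 0.11. Against 2CB, HDAC1 averaged 0.12, and the limma test of that difference over gene means gave an adjusted p of 0.93. The oocyte and maternal-effect list had 6 of 38 (15.8%), 5 positive and 1 negative, with a median of 0.066. PADI6, of the oocyte cytoplasmic lattices, had 0.10, 0.67 and 0.65 and ZP4, of the zona pellucida, 0.00, 0.60 and 0.60, so replicate 1 stood apart in both. That list had 10 without replicate 1 and 1 without replicate 3. Embryonic genome activation had 8 of 39 (20.5%), 6 of them negative, with CTCF, the insulator protein, at -0.42 ± 0.11 and ATF1 at -0.41 ± 0.09. It had 9 negative and 3 positive without replicate 1 and 4 and 2 without replicate 3, but 7 negative and 8 positive without replicate 2. Blastocyst lineage genes had 3 of 34 (8.82%), with DSG2 at -0.28 ± 0.08 (3 probes from -0.50 to 0.13), CDH1 at -0.25 ± 0.09 and LIN28A at 0.25 ± 0.08. Their share was 2.94%, 11.8% and 5.88% without replicates 1, 2 and 3, against 13.8%, 10.1% and 5.55% of all genes.

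Heat shock and unfolded protein response genes had 17 of 62 (27.4%), 8 positive and 9 negative. Without replicate 2 there were 9 positive and 5 negative, and without replicate 3 there were 3 and 5. SYVN1, the ubiquitin ligase of protein disposal at the endoplasmic reticulum, averaged -0.60 ± 0.09, and the co-chaperone DNAJB12 of the same membrane 0.76 ± 0.13. HSP90AB1, a cytosolic chaperone, averaged 0.41 ± 0.10. The proteasome list had 6 of 46 (13.0%), 5 positive and 1 negative, led by PSMC3 at 0.39 ± 0.08 over both probes and PSMD11 at 0.33 ± 0.07. It had 9 without replicate 2. Actin, adhesion and polarity genes had 17 of 82 (20.7%), with MYL12B, a myosin light chain, at 0.68 ± 0.13 and ZYX, of focal adhesions, at 0.83 ± 0.20, against ANLN, which organises the cleavage furrow, at -0.41 ± 0.08. Their counts of 10 positive and 7 negative compare with 9 and 12 without replicate 1, and 5 and 2 without replicate 3.

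Lists of energy metabolism lay below or above the share of all genes. Respiratory chain genes had 7 of 75 (9.33%), 3 positive and 4 negative, with UQCRQ first and COX7B at -0.18 ± 0.04. Without replicate 2 they had 6 positive and 2 negative, and without replicate 3 they had 0 and 5. Fatty acid genes had 4 of 44 (9.09%), and 2 without replicate 3. CD36, a fatty acid receptor, was the first of them. Its replicate values were 0.39, 0.35 and 0.32 against 8CB (mean 0.35 ± 0.05), and its mean against 2CB was -0.12. The limma test of that difference over gene means gave CD36 an adjusted p of 0.93. Glycolysis had 8 of 36 (22.2%), 5 of them negative, including PGAM1 at -0.45 ± 0.13 and PDHX at -0.26 ± 0.06 (probes -0.50 and -0.02). It had 5 of each side without replicate 2 and 4 negative and 1 positive without replicate 3. Mitochondrial ribosomes and import had 17 of 95 (17.9%), with MRPL10 at -0.40 ± 0.08 and MRPS5 at 0.34 ± 0.08. Their counts, 10 positive and 7 negative, compare with 17 and 2 without replicate 2, and 4 and 6 without replicate 3.

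**Figure D4:**
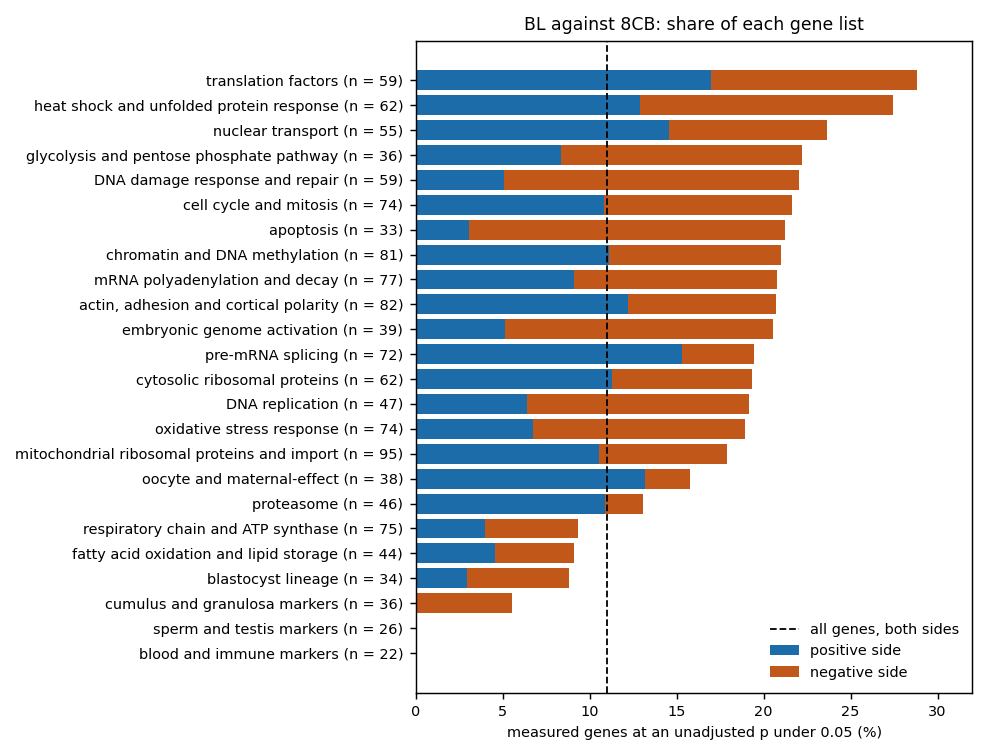
Share of the measured genes of each list with an unadjusted p under 0.05 (x axis, percent), split into the positive (blue) and negative (orange) side, with the number measured beside each name and a dashed line at the 11.0% of all genes. Translation factors (28.8%) and heat shock genes (27.4%) are at the top and the marker lists of other cells at the bottom (5.56% and 0.0%).

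Genes of the defence against reactive oxygen were followed whatever their values. The list had 14 of 74 at an unadjusted p under 0.05 (18.9%), 5 positive and 9 negative. The negative side did not lead throughout, with 8 positive and 4 negative without replicate 1, 7 of each without replicate 2, and 2 and 6 without replicate 3. AKR1B1, positive at 0.48 ± 0.09 over its probes, had the smallest p of the list. The other positive genes, also over their probes, were GSTM3 (0.54 ± 0.13), TXNIP (0.47 ± 0.16), PRDX6 (0.34 ± 0.10) and GSTP1 (0.14 ± 0.04). CAT, catalase, which removes hydrogen peroxide, had -0.64, -1.24 and -0.79 in the BL_vs_8CB arrays and -0.38, -1.16 and -0.56 in the 8CB_vs_BL arrays. All 6 were negative, replicate 2 lowest in both orientations, with a mean of -0.79 ± 0.16 or 1.73-fold (adjusted p = 0.207). PRDX1, a peroxiredoxin, had -0.78, -0.71 and -0.57 in the BL_vs_8CB arrays and -1.10, -0.62 and -0.12 in the 8CB_vs_BL arrays, all negative, for -0.65 ± 0.13 (adjusted p = 0.215). CAT and PRDX1 averaged -0.62 and -0.22 against 2CB. SOD2, the mitochondrial superoxide dismutase, was negative in all 6 arrays at a smaller -0.22 ± 0.08 (adjusted p = 0.418), or -0.14 without replicate 2, and TXN, thioredoxin, averaged -0.21 ± 0.08 with 1 of 6 arrays positive.

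The cytosolic dismutase SOD1 did not keep a side. It had 0.11, -1.30 and 0.46 in the BL_vs_8CB arrays and 1.08, -0.64 and 0.00 in the 8CB_vs_BL arrays, for -0.05 ± 0.31. Replicate 2 was lowest in both orientations. NFE2L2 (NRF2), the transcription factor that switches on antioxidant genes, had 0.44, -1.04 and -0.20 in the BL_vs_8CB arrays and 1.25, -0.43 and 0.27 in the 8CB_vs_BL arrays, for 0.05 ± 0.27. For both genes replicate 2 lay opposite to replicate 1. KEAP1, which holds NRF2 for degradation, averaged -0.08 ± 0.06, and the glutathione peroxidases GPX1 and GPX4 0.02 ± 0.06 and 0.02 ± 0.11. GPX1 was split by orientation, with 0.20, 0.25 and 0.37 in the BL_vs_8CB arrays and -0.11, -0.29 and -0.30 in the 8CB_vs_BL arrays.

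**Figure D5:**
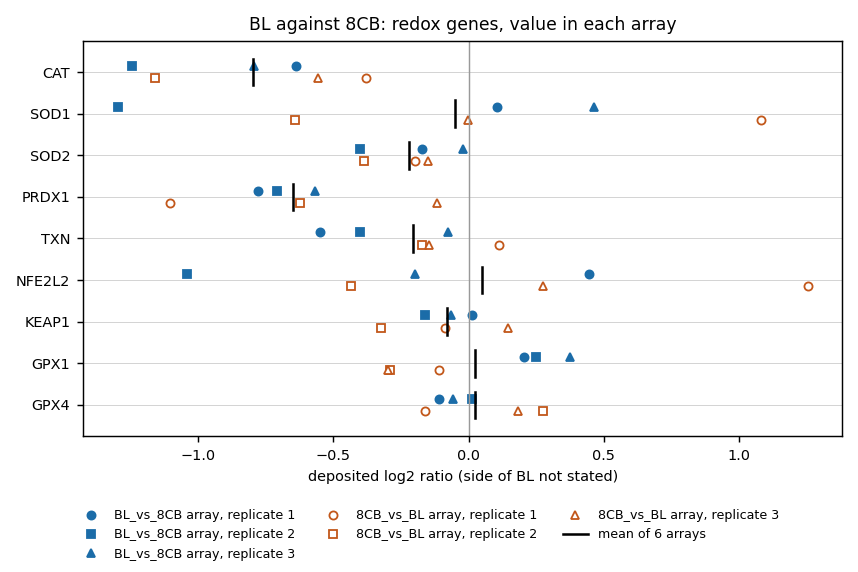
Deposited log2 ratio (x axis) of 9 redox genes (rows) in each of the 6 arrays, with filled symbols for BL_vs_8CB arrays, open symbols for 8CB_vs_BL arrays, 1 shape per replicate number and a bar at the mean. CAT, PRDX1 and SOD2 are negative in all 6 arrays, SOD1 and NFE2L2 have replicates on both sides, and GPX1 separates by orientation.

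The turned values select other genes by construction, since a gene with equal values in both orientations turns to 0. If the swapped arrays were turned before deposit, the turned values hold a dye effect and not a difference between classes, which was not tested. Of 73 named genes, 33 had the other sign after turning. An adjusted p of 0.05 was passed by 2, NFE2L2 at -0.31 ± 0.06 (turned value against 2CB -0.21) and GPX1 at 0.25 ± 0.05 (0.24 against 2CB). Over genes, 447 passed (2.94%). In the oxidative stress list 8 of 74 did. These included MAFK, a partner of NRF2 on DNA, at 0.64 ± 0.07, SOD3, the secreted dismutase, at 0.29 ± 0.03, TXN2, the mitochondrial thioredoxin, at 0.38 ± 0.07, and NQO1, a quinone reductase, at -0.30 ± 0.05. As deposited, MAFK averaged 0.16 and NQO1 0.29. Among other turned values were the small heat shock protein HSPB1 at 0.40 ± 0.04, DNAJB1 at 0.47 ± 0.06, the chaperonin subunit TCP1 at -0.30 ± 0.03, TLE6 of the maternal complex under the oocyte membrane at 0.67 ± 0.08, NDUFS7 of respiratory complex I at 0.44 ± 0.04, ACAA2 of fatty acid oxidation at 0.92 ± 0.11 and the apoptosis inhibitor BCL2 at 0.28 ± 0.04. These were picked from lists in which few genes passed when turned. The heat shock, apoptosis and fatty acid lists had 4 of 62, 3 of 33 and 2 of 44. The oocyte and respiratory chain lists had 1 of 38 and 1 of 75. The passing genes of these lists not named above were TRAP1 at 0.27, BCL2L11 at 0.33, AIFM1 at -0.22 and HADHB at -0.22. The difference of the turned values from those against 2CB had 423 probes at an unadjusted p under 0.05 (0.966%). Of 1407 probes called in the BL_vs_8CB arrays alone, 634 (45.1%) had the same sign in the mean of the 8CB_vs_BL arrays, as deposited, against 42.6% of all probes.

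Ratios carry no level, so the pools could not be checked for the transcripts that define a blastomere. Markers of cells that could come along were read instead. Of 87 markers of cumulus and granulosa, sperm and testis, and blood cells, 84 were measured. At an unadjusted p under 0.05 there were 2 (2.38%, against 11.0% of all genes). These were GJA1 at -0.20 ± 0.05 (probes -0.38 and -0.01) and CYP11A1 at -0.16 ± 0.05. Without replicate 1 the 3 marker lists had 3, 1 and 0 such genes, without replicate 2 they had 1, 2 and 1, and without replicate 3 they had 0, 0 and 0. Turned by the labelled dyes, 5 positive and 9 negative of the 84 had an unadjusted p under 0.05, against 1721 and 1928 of all 15216 genes. NR5A1 at 0.36 ± 0.05 and CD44 at -0.35 ± 0.06, both of the cumulus and granulosa list, passed an adjusted p of 0.05 when turned. The share of all genes that did so was 2.94%. The 84 genes ran from -0.29 to 0.19 with a median of 0.006. Their part in the results was not tested. Fewer transcripts of a gene and fewer cells that hold it within a pool cannot be told apart.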

How the data were processed

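The authors deposited 1 log2 ratio per probe and array, per the labels from two-colour Agilent arrays of RNA amplified and labelled at guanine with Cy3 and Cy5; the base is taken, not stated. The submitters' processing notes list limma, with no version or role given. The background and dye corrections are not given in the sources, and without intensities no probe could be called above background, and no depth is defined. The table had 43795 rows, of which 43793 were analysed (1 lacked a value and 1 was no numbered probe). Symbols of 21790 probes came from the platform annotation. Set against RefSeq gene names (ARS-UCD2.0), 20025 were current, 1524 were updated and 241 older ones were kept, while 22003 probes have no symbol here.

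Both dye-swapped arrays of a replicate number were averaged as deposited, which leaves the side of BL open. The 6 averaged ratios, 3 against 8CB and 3 against 2CB, were fitted with lmFit and eBayes (limma 3.58.1, R 4.3.3), with 1 coefficient per comparison, a shared spread and two-sided p adjusted by Benjamini-Hochberg over all probes. The threshold was an adjusted p of 0.05, with 0.1 also counted. The p-values rest on 3 independent pools per class. That the swapped arrays of a number hold the same pools was assumed. The fit was tested on simulated data. The members, gene lists and rule for named genes were chosen with earlier results of these data known. That rule took 15 genes per side by smallest p and 8 per side by largest ratio, both on 1 side in all 6 arrays, up to 10 per side by every probe, 9 redox genes, and 4 genes per list by smallest p. Further list genes in the text were picked after their values were seen. Alternatives were the turn by the labelled dyes, the replicate block, single orientations, the 6 arrays alone, other normalizations, robust moderation, a filter, gene means and each replicate left out; gene list counts without a replicate were chosen after seeing the data. Plots used Python 3.11.15 and matplotlib 3.10.9.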

Additional observations from a re-analysis of the deposited data

How the results depend on the processing

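The count of 0 probes at an adjusted p under 0.05 stayed 0 with the 6 arrays alone, with the 8CB_vs_BL arrays only, under robust moderation, with the smallest ratios left out, after centring, scaling or quantile normalization, over gene means and each replicate left out (0 to 0). It was 2028 after the turn by the labelled dyes and 1407 with the BL_vs_8CB arrays only. At an adjusted p under 0.10 the count of 92 became 5297 when turned, 3678 with BL_vs_8CB arrays only, 0 with 8CB_vs_BL arrays only, 0 with the 6 arrays alone, 5 after median centring, 211 after quantile normalization, 4 with robust moderation, 0 with the filter, 36 of 15216 gene means, and from 0 to 1 without a replicate. At an unadjusted p under 0.05 the count of 4285 became 10990 when turned, 9515 with BL_vs_8CB arrays only, 1676 of 15216 gene means, and from 2305 to 5331 without a replicate. The cause of these shifts was not tested, apart from gene means, which test fewer features. Of 73 named genes, the turn gave 33 the other sign, single orientations 2 or 3, quantile normalization 1, and leaving out replicate 1, 2 or 3 gave 1, 3 and 0. Apart from the redox genes, all were chosen for lying on 1 side in the 6 arrays or the 3 averaged ratios. They could therefore not change sign when a replicate was left out, so these low counts do not measure stability. A gene with near-equal values in both orientations turns to near 0, where its sign says little.

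With the arrays entered singly, a dye term and the replicate block (consensus correlation 0.221), 498 probes passed an adjusted p of 0.05 and 1156 one of 0.10. Without the block, as if swapped arrays were independent, 995 and 1879 passed. Of 73 named genes 42 passed with the block and 51 without, beside 498 and 995 of all 43793 probes. Most of the 73 were chosen on the same arrays for a small p, a large ratio or agreement in side. Their higher share is thus part of the choice. Deviations of swapped arrays correlated at 0.357, 0.80 and -0.218 for numbers 1 to 3, so the numbers were not shown to pair the arrays. Without intensities, signal over background sets no limit that could be stated.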
